A study of Homo sapiens with 2 samples.

Results

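The interior 3'UTR peaks of NUDT21 were the deposited eCLIP-seq peaks that lay inside 3'UTRs, away from stop codons and from annotated transcript ends. A peak was a member if its midpoint lay in a 3'UTR and in no coding sequence (CDS) of GENCODE 44, more than 150 nt from every annotated end of the gene's coding transcripts and not within 300 nt after any annotated stop codon of the gene. Of 20499 peaks in hg38 coordinates, 5612 had a midpoint in a 3'UTR, 3770 of these lay in no CDS, and 2512 were interior. These made up 12.3% of all peaks (11.8 to 12.7, a 95% interval by the exact Clopper-Pearson method) and 66.6% of the 3'UTR peaks free of CDS. The remaining 3'UTR peaks free of CDS were 753 near a transcript end and 505 near a stop codon, while 1842 further peaks had their midpoint in a 3'UTR of one transcript and in CDS of another. The members fell in 1480 of the 14466 genes that have such an interior region (10.2%).

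The study examined NUDT21 in T-ALL, a leukemia of immature T cells, and mapped its RNA contacts in J-Gamma1, an established T-ALL line derived from Jurkat. The series held 1 library made with a NUDT21 antibody and 1 input library, both from cells irradiated 2 times with 254 nm UV-C light at 400 mJ with RNase I digestion of the lysate (40 U, 5 min) and no other treatment in the labels. Only the antibody library's peaks were used, and the depth of both libraries was unknown because no read totals were given. With 1 replicate there was no replicate check and no test between conditions, and every interval here covers counting error only.

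NUDT21 is the small subunit of cleavage factor I, the complex that binds UGUA in RNA as a dimer and recruits the cleavage and polyadenylation machinery together with CPSF6 or CPSF7. Its best known sites lie just upstream of poly(A) signals, where it favours the use of distal poly(A) sites and hence long 3'UTRs. The interior of a long 3'UTR carries sites for miRNAs and RNA-binding proteins, and can hold proximal poly(A) sites that are missing from the annotation.

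The sequences shown first are UGUA sites in interior peaks that hold one; the members without any UGUA, counted further on, are not represented by them. Each line gives 30 bases of the hg38 reference on the gene's strand, with T for U and with UGUA in capitals, around the site nearest the peak midpoint. The 10 peaks shown are those of highest fold enrichment that held a UGUA, with fold enrichments of 5.55 for ARGLU1, 3.86 for SRRM1, 3.82 for KHDRBS1, 3.81 for HNRNPA2B1 and 3.41 for VMA21 as the lowest.
ARGLU1 (chr13:106543354-106543383, minus strand): gcattccccattgTGTAaataaatgatttt
SRRM1 (chr1:24672899-24672928, plus strand): gtttatattgatgTGTAacaagttgatttg
KHDRBS1 (chr1:32043704-32043733, plus strand): tcaaaatccacttTGTAcataagttaaagt
HNRNPA2B1 (chr7:26191067-26191096, minus strand): ctgccacaaagacTGTAaagtgcttcattt
SEPTIN7 (chr7:35904728-35904757, plus strand): gcatatacaataaTGTAatttagtctaaca
PTAR1 (chr9:69710462-69710491, minus strand): attctaaggctaaTGTAatgacTGTAgatt
DCAF16 (chr4:17800999-17801028, minus strand): aaaaagagggaatTGTAgaataaaagtatt
PTAR1 (chr9:69715091-69715120, minus strand): tatattaaaaattTGTAgagctaaagaacc
GRB2 (chr17:75319806-75319835, minus strand): cccagacccccagTGTAttttgtccaagtt
VMA21 (chrX:151409116-151409145, plus strand): tcattgaatatgcTGTAgtattgaatagtg

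Because the protein binds as a dimer, peaks holding a pair of UGUA within a short distance are shown as well. These are the 6 peaks of highest fold enrichment in which such a pair fitted into 30 bases. From start to start the sites were 9 nt apart in the first PTAR1 peak, 17 nt in the second, 10 nt in DCAF16, 8 nt in SRSF10 and in CPSF6, and 13 nt in SEC62.
PTAR1 (chr9:69710457-69710486, minus strand): aaggctaaTGTAatgacTGTAgattatcta
DCAF16 (chr4:17800934-17800963, minus strand): attgttagTGTAactgaaTGTAtcagaaat
PTAR1 (chr9:69715124-69715153, minus strand): gctcTGTAattgtcaattaacTGTAttata
SRSF10 (chr1:23978249-23978278, minus strand): ctcagagaaTGTAaagcTGTAcagttatgg
CPSF6 (chr12:69270231-69270260, plus strand): tgaatggtaTGTAaactTGTAaaaatagag
SEC62 (chr3:169995798-169995827, plus strand): tcaacaTGTAaatttctgtTGTAaagacac

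The first PTAR1 peak held no UGUA beyond the pair shown, whereas the DCAF16 peak and the second PTAR1 peak held 4 UGUA each. CPSF6, the gene of a NUDT21 partner, held 3 in the peak shown.

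Interior peaks were of modest height. The median length was 122 nt, the quartiles were 68.75 and 256 nt, and the extremes were 48 and 498 nt. Median lengths were 155 nt over all peaks, 97 nt near transcript ends, 96 nt near stop codons and 80 nt in the class shared with CDS. The fold enrichment is the authors' measure of pileup over local background, which is not a plain ratio and lies near 1 for low peaks. Its median was 1.84, its quartiles 1.39 and 2.28, and its extremes 1.17 and 5.55. The height of a peak is given by its Score, which took only whole multiples of 0.228, called steps here. Members stood at 1 to 27 steps with a median of 5 steps. At 1 step, the lowest possible height, there were 516 members (20.5%), a further 697 stood at 2 to 4 steps, 918 at 5 to 8, 367 at 9 to 16 and 14 at 17 or more.

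No interior peak passed a false discovery rate (FDR) of 0.05, against 0.0927% of all peaks. A count of 0 among 2512 allows a share of up to 0.119% (3 counts), and the exact 95% interval reaches 0.147%. An FDR below 1 was given to 3 members, in ARGLU1 (0.0580), HMGB1 (0.125) and KHDRBS1 (0.891). The other 2509 carried an FDR of 1, although the methods name a q-value limit of 0.05 for the peak calls. The count of 0 held for the peaks near transcript ends and near stop codons too, and all of the 6 3'UTR peaks with an FDR under 0.05 lay in the class shared with CDS. The deposited p-values of members ran from 2.54e-08 to 0.04996.

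A total of 1299 interior peaks (51.7%, 49.7 to 53.7) reached 5 or more steps, against 42.3% of all peaks. This was less than among the 3'UTR peaks near transcript ends (65.9%, 62.4 to 69.3), near stop codons (69.5%, 65.3 to 73.5) and in CDS (85.3%, 83.6 to 86.9). A fold enrichment of at least 2 was reached by 1112 members (44.3%, 42.3 to 46.2), against 38% of all peaks, and median fold enrichments of the other classes were 2.09 near ends, 2.09 near stop codons and 2.37 in CDS. The interior class was therefore the lowest of the 3'UTR classes by both measures, with intervals that did not overlap those of the other classes. The 2 measures are not separate, since both rest on the pileup. Of the members with a fold enrichment of at least 2, 100% stood at 5 or more steps. No test across peaks was made, since peaks of one library are not replicates.

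**Figure D1:**
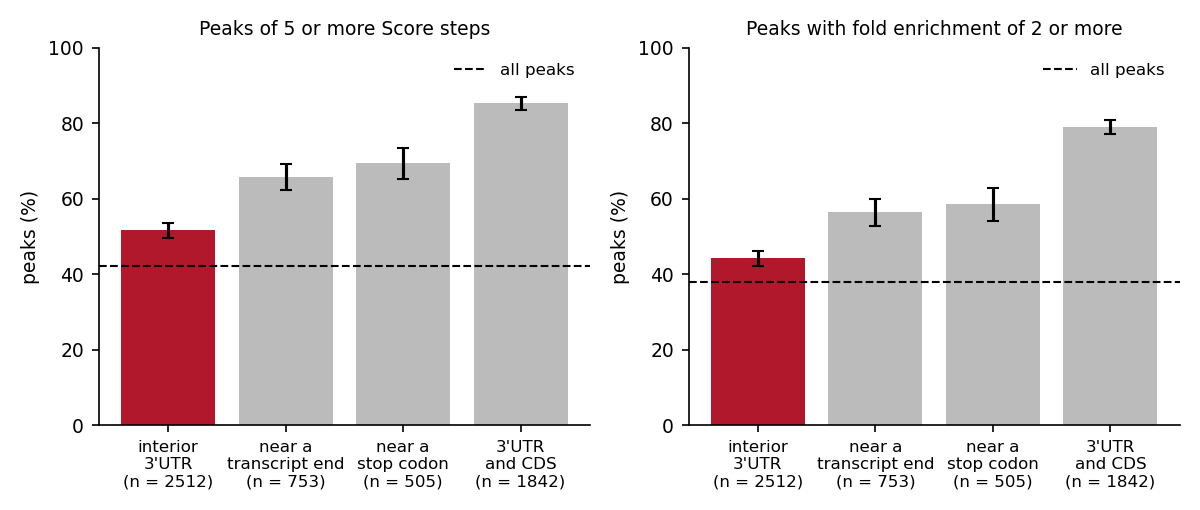
Share of peaks (%) with a Score of 5 or more steps (left) and with a fold enrichment of at least 2 (right), for interior 3'UTR peaks (red) and the 3 other classes of 3'UTR peaks (grey); error bars are exact 95% intervals and the dashed line is the share among all peaks. Interior peaks stood at 51.7% and 44.3%, above the dashed lines at 42.3% and 38% and below the other 3 classes.

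The members of 5 or more steps and those of fewer steps differed in shape and spacing. The 1299 higher members had a median length of 75 nt and a median fold enrichment of 2.28, and the 1213 lower ones of 237 nt and 1.39. A partner peak starting exactly 476 nt away was found for 507 of the lower members (41.8%, 39.0 to 44.6) and for 41 of the higher ones (3.16%, 2.27 to 4.26). Such a partner was not particular to interior peaks. The share was 21.8% of all members and 19.6% of all peaks. It was 16.2% near transcript ends, 13.1% near stop codons and 7.82% in the class shared with CDS. Among 1049 pairs of neighbouring interior peaks in one gene, 202 (19.3%) had the distance of 476 nt, which was also their median. The part of this spacing in the results below was not tested, and values are therefore given for both sets.

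The highest fold enrichment, 5.55 at 27 steps, was in ARGLU1, which encodes a splicing coactivator (chr13:106543327-106543494), 586 nt after the stop codon and 1737 nt from the nearest end. HMGB1, a chromatin protein gene, followed with 5.04 at 22 steps (chr13:30460150-30460238). ZRANB2, a splicing factor gene, had 4.33 at 21 steps.

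The histone chaperone gene NAP1L1 had 4.06 at 16 steps and NUCKS1, encoding a DNA-binding nuclear protein, 3.9997 at 20 steps. HNRNPDL and HNRNPA2B1, both hnRNP genes, had 3.96 at 23 steps and 3.81 at 19 steps. The list of 10 was completed by the topoisomerase I gene TOP1 with 3.90, the splicing factor gene SRRM1 with 3.86 and the RNA-binding protein gene KHDRBS1 with 3.82. HNRNPDL was the only 1 of these 10 outside the 3'UTR of its canonical transcript. UGUA was present in ARGLU1, SRRM1, KHDRBS1 and HNRNPA2B1 and absent from the peaks of HMGB1, ZRANB2, NAP1L1, NUCKS1, HNRNPDL and TOP1.

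Members were spread along long 3'UTRs. The 3'UTR of the canonical transcript, the annotation's representative one, contained 2302 members (91.6%); of the other 210, 151 lay in an intron of that transcript and 59 outside it. A total of 45 were members only through transcripts annotated for nonsense-mediated or non-stop decay. The median distance to the nearest annotated end was 891 nt (quartiles 443 and 1794 nt) and to the nearest stop codon upstream 1377.5 nt. Canonical 3'UTRs of genes with a member had a median of 3032 nt, against 1609 nt for all genes with an interior region.

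Along the canonical 3'UTR, 31.6% of members lay in the first part of 3 equal parts, 40.8% in the middle and 27.5% in the last. These shares depend on how much interior sequence each part holds, so the rate was taken per kb of interior sequence in the genes with a member. It was 0.502 peaks per kb (0.393 to 0.631) in the first 10% of the length, 0.656 (0.580 to 0.739) at 10 to 20% of the length, 0.606 (0.540 to 0.678) at 40 to 50%, 0.462 (0.404 to 0.525) at 80 to 90% and 0.266 (0.212 to 0.330) in the last 10%. The rate was thus lowest in the last 10%, while the first 10% was not above the middle. Members of 5 or more steps had 0.289 per kb (0.208 to 0.390) in the first 10%, 0.379 (0.322 to 0.443) at 10 to 20% and 0.133 (0.0955 to 0.180) in the last 10%. Those of fewer steps had 0.213 (0.145 to 0.302) in the first 10%, a highest value of 0.307 (0.2604 to 0.359) at 40 to 50%, 0.207 (0.169 to 0.251) at 80 to 90% and 0.133 (0.0955 to 0.180) in the last 10%.

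**Figure D2:**
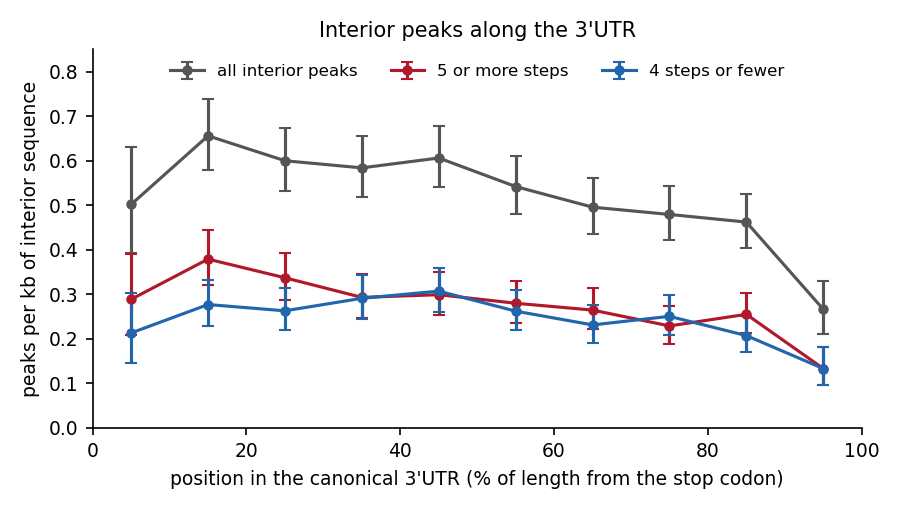
Interior peaks per kb of interior 3'UTR sequence (y axis) by position in the canonical 3'UTR, as a percentage of its length from the stop codon (x axis), for all members (grey), those of 5 or more steps (red) and those of 4 steps or fewer (blue); bars are exact Poisson 95% intervals. The rate of all members was 0.502 in the first 10%, 0.656 at 10 to 20% and 0.266 in the last 10%.

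The share of genes with a member was higher where the interior region was longer. Of genes with up to 500 nt of interior sequence 1.49% (1.13 to 1.93) held a member, of those with 2001 to 4000 nt 17.3% (15.99 to 18.7), and of those above 8000 nt 25.7% (21.6 to 30.3). Over all genes of a length class the rate per kb did not rise steadily with length. It was 0.0744 for the shortest, highest at 0.107 for 2001 to 4000 nt and lowest at 0.0571 above 8000 nt. Together the genes with a member had 5195 kb of interior sequence, of which 8.08% lay in deposited peaks.

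UGUA, the NUDT21 motif, was counted on the gene strand for the 2474 members whose genes lie on 1 strand; the other 38 fell in 3'UTRs of both strands. At least 1 UGUA was present in 1301 members (52.6%, 50.6 to 54.6), 2 or more in 563 (22.8%) and 3 or more in 265 (10.7%), and the maximum was 9. A total of 1173 members (47.4%) held none. These shares depend on peak length, so density was compared with the interior 3'UTRs of the same genes outside every peak. It was 5.64 UGUA per 1000 positions in peaks and 5.59 outside, a ratio of 1.01 (0.965 to 1.05). Over all members UGUA was thus as dense in peaks as beside them, within counting error.

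The ratio differed with peak height. In the 1275 members of 5 or more steps the density was 6.61 per 1000 positions against 5.84 outside, a ratio of 1.13 (1.05 to 1.21), and in the 1199 members of 4 steps or fewer it was 0.949 (0.8996 to 1.001). Read on the opposite strand, the same higher members gave 0.926. The 11 other orders of the same 4 bases gave ratios from 0.827 to 1.06 in the higher members, each below that of UGUA. The gene strand held 1.68 UGUA (1.501 to 1.88) for each on the opposite strand in the higher members, against 1.37 (1.34 to 1.41) in the sequence outside. Strand ratios of the 11 other orders in the higher members ran from 0.844 to 1.60, each below that of UGUA. The highest was ATTG, at 1.60 (1.41 to 1.82) in peaks and 1.54 outside. Over all members ATTG, at 1.42, stood above UGUA, at 1.40.

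The excess was small and did not grow with height. Members of 1 step had a ratio of 0.978 (0.897 to 1.06), and those of 2 to 4 steps 0.936 (0.874 to 1.002). The ratio was 1.14 (1.04 to 1.24) for heights of 5 to 8 steps, 1.07 (0.934 to 1.21) for 9 to 16 and 0.701 (0.253 to 1.56) for the 14 peaks of 17 or more. Without the 10 genes with most members the ratio at 5 or more steps was 1.12 (1.04 to 1.21). With only the highest peak of each gene it was 1.09 (0.994 to 1.20), and with UGUAA or UGUAU in place of UGUA 1.05 (0.952 to 1.15), so that both intervals then included 1.

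In windows of 48 nt, the shortest peak length, UGUA was found in 25.3% (22.9 to 27.7) of the central windows of members of 5 or more steps and in 22.6% (22.2 to 23.05) of 40085 windows of that length outside peaks. For members of 4 steps or fewer the shares were 20.02% (17.8 to 22.4) and 21.4% (21.1 to 21.8). For the higher members the intervals in peaks and outside overlapped only from 22.9 to 23.05%. For the lower members the interval in peaks contained the one outside. Overlap of intervals is not a test, and the differences in windows of this length were not tested. Around the midpoint the higher members showed no sharp maximum: the density in bins of 50 nt was 6.40 per 1000 positions (5.79 to 7.06) at the midpoint, 5.73 (5.07 to 6.45) at 300 nt upstream and 6.81 (6.12 to 7.56) at 300 nt downstream. These flanks were limited to interior sequence and included neighbouring peaks.

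**Figure D3:**
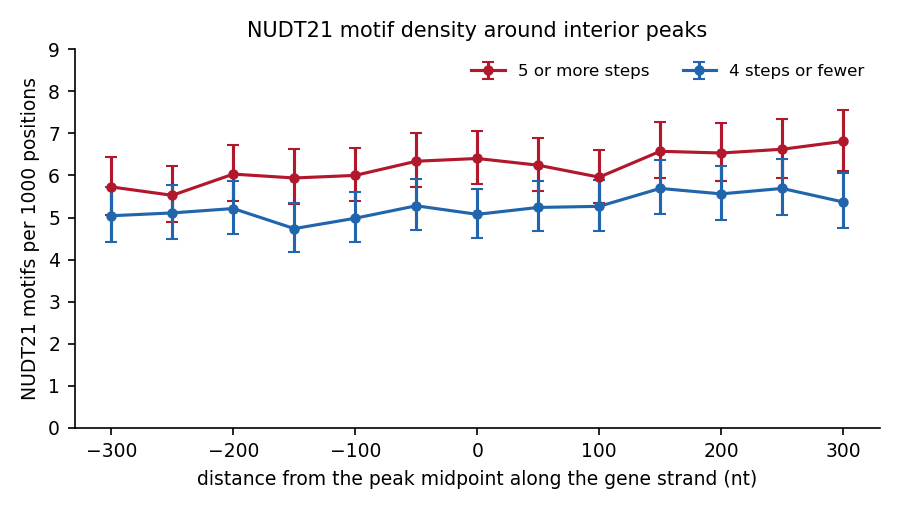
UGUA density (motifs per 1000 positions on the gene strand) in bins of 50 nt around the peak midpoint, for members of 5 or more steps (red) and of 4 steps or fewer (blue); bars are exact 95% intervals. The red points lie above the blue ones throughout, at 6.40 at the midpoint, and neither set has a maximum confined to the centre.

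The other classes of 3'UTR peaks had other UGUA densities. Among peaks of 5 or more steps it was 6.79 per 1000 positions near transcript ends, 5.23 near stop codons and 2.65 in peaks that also lay in CDS, beside 6.61 in interior peaks. These classes differ in the sequence around them, and the differences between them were not tested.

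UGUA pairs were counted because the protein is a dimer. In members with 2 or more UGUA, neighbouring sites were a median of 43.5 nt apart from start to start. Of the 1685 UGUA in peaks with room for a neighbour on the 3' side, 397 (23.6%, 21.6 to 25.7) had another within 40 nt, and the share outside peaks was 23.6% (23.1 to 24.2). In members of 5 or more steps it was 140 of 488 (28.7%, 24.7 to 32.9), against 24.9% (24.1 to 25.7) outside the peaks of their genes. Over all members the share was thus the same in peaks and outside. In the higher members it was larger in peaks, with intervals that overlapped, and this difference was not tested.

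Further sequence features of 3'UTRs were counted in the same way, on the gene strand and with overlapping matches. The poly(A) signals AATAAA and ATTAAA, which mark cleavage sites, were present in 449 members (18.1%). Their density ratio was 0.990 (0.908 to 1.08) over all members, 1.09 (0.935 to 1.26) at 5 or more steps and 0.936 (0.842 to 1.04) below. No difference from the sequence outside was detectable for these signals. The pentamer ATTTA, the core of AU-rich elements that bind mRNA decay factors, had a ratio of 0.813 (0.711 to 0.925) at 5 or more steps and 1.03 (0.954 to 1.12) below.

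The Pumilio motif TGTANATA, which contains UGUA, was rare. The UGUA sites printed above for ARGLU1 and KHDRBS1 were matches of this longer motif. The Pumilio motif occurred 39 times in the higher members, with a ratio of 1.45 (1.02 to 2.01), and 48 times in the lower ones, with 0.814 (0.594 to 1.09). Windows of 48 nt held it in 1.49% (0.8995 to 2.32) of higher members and 0.848% (0.761 to 0.943) of the sequence outside.

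The largest sequence difference was in runs of U, a feature examined after the data had been seen. A run of 5 U (TTTTT) occurred at 3.47 per 1000 positions in members of 5 or more steps and at 9.07 in the interior 3'UTRs of the same genes outside peaks, a ratio of 0.383 (0.347 to 0.422). In members of 4 steps or fewer the ratio was 1.03 (0.991 to 1.08). Runs of 5 A in the higher members had a ratio of 0.862 (0.791 to 0.938), so that the shortage was mainly on 1 strand. In windows of 48 nt, TTTTT was found in 6.35% (5.08 to 7.83) of the higher members and in 17.7% (17.3 to 18.0) of the windows outside, against 16.1% (14.1 to 18.3) and 15.8% (15.5 to 16.1) for the lower members.

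The base composition of the higher members moved the same way. They contained 30.004% A and 28.2% U, against 27.5% A and 31.8% U in the same genes outside peaks, while G plus C differed little at 41.8% and 40.7%. Near transcript ends and near stop codons the peaks of 5 or more steps held 4.11 and 3.54 TTTTT per 1000 positions, close to the 3.47 of interior peaks. The part of read mapping in this shortage was not tested.

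**Figure D4:**
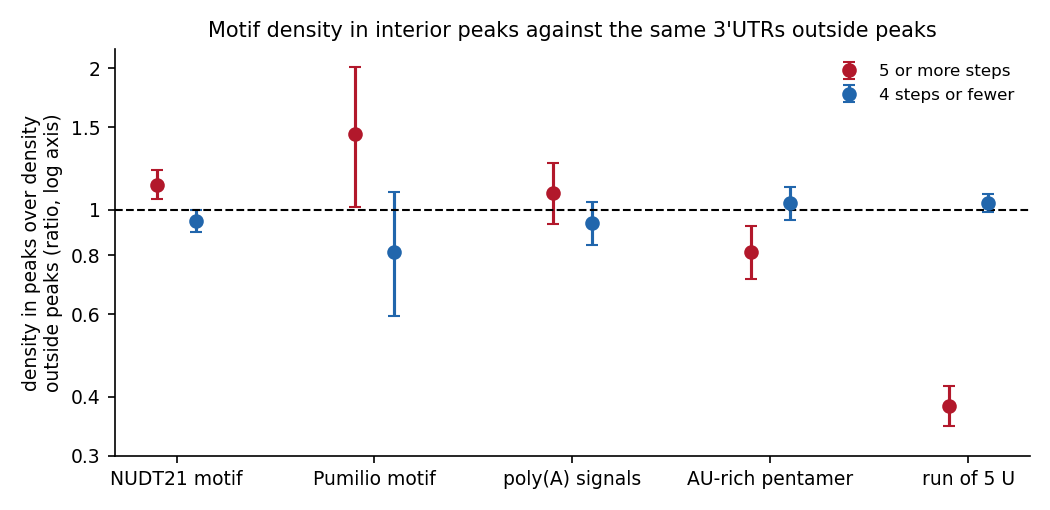
Density of 5 motifs in interior peaks over their density in the interior 3'UTRs of the same genes outside peaks (ratio, log axis, exact 95% intervals), for members of 5 or more steps (red) and of 4 steps or fewer (blue); the dashed line marks equal density. In the higher members the NUDT21 motif stood at 1.13 and the run of 5 U at 0.383, and in the lower ones at 0.949 and 1.03.

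Other annotated features were few at the members. A noncoding exon lay at the midpoint of 70 members (2.79%), 59 of them in lncRNAs, and a gene on the opposite strand at 382 (15.2%, 13.8 to 16.7). The list gives no strand, so for these the strand of the bound RNA cannot be told apart. Motif counts left out only the 38 members in 3'UTRs of both strands. Members with any other gene on the opposite strand stayed in those counts. No member overlapped a miRNA hairpin of the RefSeq set.

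Most genes held few members, and some held many. A single member was found in 914 genes (61.8%), 2 in 339 and 3 or more in 227, and 58 genes held 5 or more. The 10 genes with most members held 126 of them (5.02%), all at 5 or more steps.

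PANK3, a pantothenate kinase gene of coenzyme A synthesis, held 21 members between 359 and 8681 nt after its stop codon, in a 3'UTR of 9079 nt. Their fold enrichments ran from 1.91 to 3.39 with a median of 2.41, and 12 of them held a UGUA. The highest stood 1088 nt after the stop codon at 13 steps, and the most distal one, 395 nt from the annotated end, at 8 steps with a fold enrichment of 2.57. The members of PANK3 were thus spread over nearly the whole interior of its 3'UTR, at heights from 5 to 13 steps.

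PTAR1, encoding a protein with prenyltransferase alpha-subunit repeats, held 20 members over 6665 nt with fold enrichments from 2.04 to 3.56, and 13 of them held 23 UGUA in all. PRKCB, the protein kinase C beta gene, held 13 with fold enrichments from 2.07 to 3.45. Only 2 of the 13 held a UGUA, 1 each, so that the height of its peaks was like that of PTAR1 with far fewer motifs. ETNK1, an ethanolamine kinase gene, was at the other extreme, with 20 UGUA in 9 of its 11 members and fold enrichments from 1.91 to 2.83.

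SRSF10, a splicing factor gene, held 12 members, 11 of them in its canonical 3'UTR, with fold enrichments from 1.72 to 3.46. HAPSTR1, a stress response gene, held 12 as well (1.79 to 2.57), and none lay in the canonical 3'UTR. TUG1 held 11 members (2.07 to 3.30), 3 with a UGUA; it is best known as a long noncoding RNA, and GENCODE 44 lists it as protein-coding. CELF1, the gene of an RNA-binding protein of 3'UTRs and introns, held 9 (2.28 to 2.94), TMEM185B 9 (1.87 to 3.06) and CD47, the gene of a surface protein that inhibits phagocytosis, 8 (2.18 to 3.61).

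**Figure D5:**
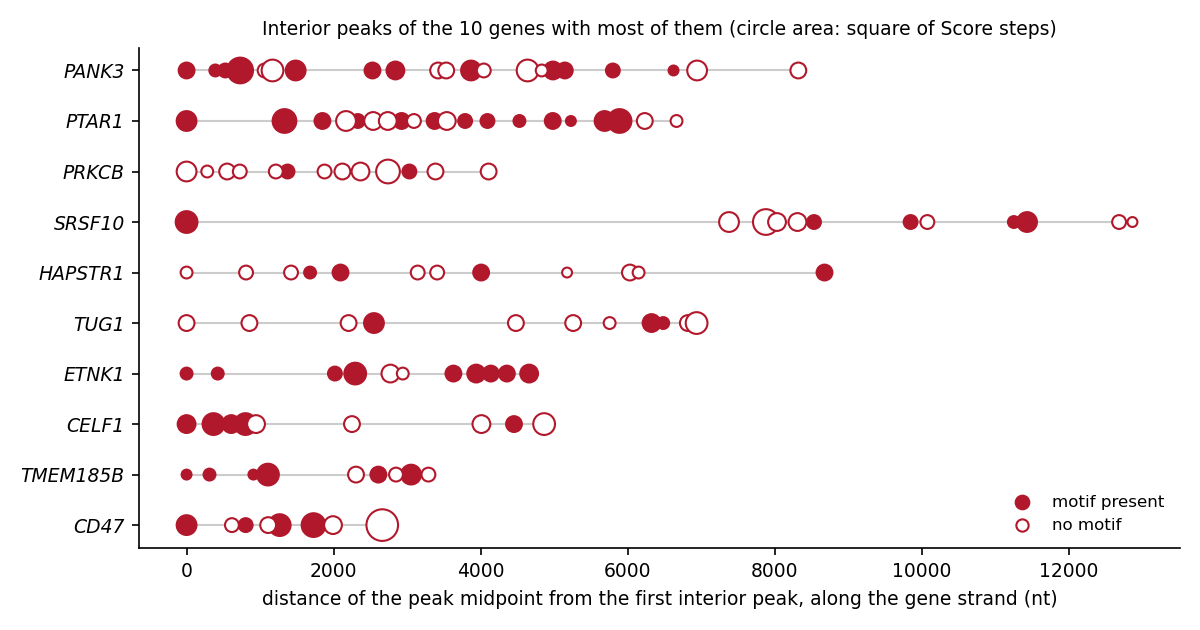
Interior peaks of the 10 genes with most of them, one row per gene, by distance of the midpoint from the gene's first interior peak along its strand (nt); circle area rises with the square of the Score steps, and filled circles hold a UGUA. PANK3 and PTAR1 have 21 and 20 peaks, of which 12 and 13 are filled, and PRKCB 13, of which 2 are filled.

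All 3 genes of cleavage factor I itself held members (100%, 29.2 to 100), against 10.2% of all genes. CPSF6 held 7, between 748 and 4012 nt after its stop codon, with fold enrichments of 3.06, 3.06, 2.84, 2.21, 2.07, 2.66 and 2.23 in that order. The first, with the UGUA pair printed above, was the highest. CPSF7 held 2 members, at 2.67 and 2.86. NUDT21 held 3, at 1.77, 1.79 and 1.77, each below the median of 1.84 over all members. The 12 peaks of the 3 genes all reached 5 or more steps, beside 51.7% of all members, and their median fold enrichment was 2.44 beside 1.84.

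Of 14 core cleavage and polyadenylation factor genes with an interior region, 4 held a member (28.6%, 8.39 to 58.1), an interval that includes the 10.2% of all genes. The poly(A)-binding protein gene PABPN1 had 2.57 and the poly(A) polymerase gene PAPOLA 1.99, while CSTF1, with 3 members, and FIP1L1 had a highest value of 1.39. Of the 6 peaks in these core factor genes 2 reached 5 or more steps, beside 51.7% of all members. Their median fold enrichment was 1.39. Among 8 genes whose 3'UTRs are known to change in length on loss of NUDT21, 4 held a member (50%, 15.7 to 84.3). The share over all genes was 10.2%. VMA21, a proton pump assembly gene, held 7 with a highest value of 3.41. TIMP2, a metalloproteinase inhibitor gene, held 3 (2.75), and DICER1, the gene of the miRNA-processing nuclease, 1 (2.16). Of the 12 peaks of the genes of this list 11 reached 5 or more steps, beside 51.7% of all members. Of 30 genes of the miRNA pathway and of 3'UTR-binding regulators 11 held a member (36.7%, 19.9 to 56.1), against 10.2% of all genes. PUM2 had 2.46 and KHSRP 1.84. Of the 16 peaks in the genes of this list 7 reached 5 or more steps, beside 51.7% of all members.

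The ubiquitin pathway was of interest to the study through UBE2D3, UBE2N and UBE2J1. UBE2D3 held 0 interior peaks, and its 3 3'UTR peaks also lay in CDS. UBE2J1 held 0, with 1 peak near a stop codon. UBE2N held 1 member of 57 nt with a fold enrichment of 2.48 at 7 steps, 461 nt after the stop codon, 164 nt from an annotated end and without a UGUA. Of 32 genes of ubiquitin-conjugating enzymes 6 held a member (18.8%, 7.21 to 36.4), an interval that includes the 10.2% of all genes, with the highest in UBE2O (2.61), and of 41 E1 and E3 ligase genes 11 (26.8%, 14.2 to 42.9), the highest in VHL (2.78), with MDM2 and CUL4A at 2.16 each. At 5 or more steps stood 6 of the 7 peaks in conjugating enzyme genes and 5 of the 15 in ligase genes, beside 51.7% of all members.

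Of 31 T-ALL driver genes 7 held a member (22.6%, 9.59 to 41.1), an interval that includes the 10.2% of all genes. Among the 7 were BCL11B, CDK6, ETV6, KMT2A, NOTCH1 and RUNX1. The 15 peaks of the 7 genes all reached 5 or more steps, beside 51.7% of all members. RUNX1, a blood cell transcription factor gene, held 4 with fold enrichments of 2.50, 2.45, 2.26 and 1.84. NOTCH1, the receptor gene most often mutated in T-ALL, held 3 (2.71, 2.64 and 1.77), and the histone methyltransferase gene KMT2A 3 (2.57, 2.18 and 2.07). MYC held 0.

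Genes of most lists had more interior sequence than genes at large. The median was 3413 nt for the genes known to respond to NUDT21 loss, 3128 nt for cleavage factor I and 1844 nt for the core factors, against 1283 nt over all genes, while that of the T-ALL genes was 1283 nt as well. The share over all genes also counts every annotated gene with an interior region, whether or not it is expressed in this line. Neither length nor expression was adjusted for in these shares, and nothing particular to a list was tested.

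At the limits of the rule, the member closest to a transcript end was in EI24, 151 nt from it, with a fold enrichment of 1.82. The nearest peak left out lay 150 nt from an end in PRC1, with 2.37. The member closest to a stop codon was in RIOK2 at 302 nt with 1.39, and the nearest left out was in EDEM3 at 299 nt with 2.27.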

How the data were processed

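The authors trimmed the eCLIP reads with fastp, collapsed duplicates by their molecular identifiers, discarded ribosomal reads, mapped the rest to hg38 and called peaks on the single antibody library with MACS2 (local windows of 1000 and 10000 nt). Which aligner was used, and if the input was the control of these calls, is not given in the sources used here. Input files were not analysed here.

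The deposited fold enrichment is MACS2's measure of a peak's pileup over the local background. It was not a plain ratio of the 2. Its median was 1.17 for members of 1 step and 1.39 for those of 2 to 4 steps, whose median was 2 steps. The values behave as if 1 were added to both pileup and background, which draws low peaks towards 1. The deposited p-value and FDR (a q-value) are MACS2's, and the deposited Score is a pileup signal whose unit the authors do not state. The deposited peak length equals end minus start plus 1. The values were used as deposited.

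Midpoints were placed on GENCODE 44 (protein-coding genes other than readthrough genes, all coding transcripts, genome distance), and a peak took its gene's strand, since the list has none. A midpoint in 3'UTRs of several genes had to meet the distances for each. Motifs were counted in the hg38 reference in whole peaks. Density is matches per 1000 possible start positions, and outside sequence is the interior 3'UTR of the same genes without any deposited peak. Ratios have exact conditional 95% intervals and shares exact Clopper-Pearson ones, which do not allow for peaks sharing a gene.

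The members, the limit of 5 steps, the motifs and the gene lists, the last written from general knowledge, were chosen with earlier results of these data known. Genes were named by rule: the 10 peaks of highest fold enrichment, the 10 genes with most members, UBE2D3, UBE2N, UBE2J1, NUDT21, CPSF6, CPSF7, MYC and up to 4 genes of each list with the highest peaks; further members of a small list were named after their values were seen. Values of some list genes are not reported here. The counting was tested on simulated data. The tools were matplotlib 3.10.9, pysam 0.24.0, scipy 1.17.1, pandas 2.3.3, numpy 2.4.6 and Python 3.11.15.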

Additional observations from a re-analysis of the deposited data

How the results depend on the processing

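With an FDR under 0.05 the number of interior peaks and of their genes was 0, and no further value could be had. With 5 or more steps it was 1299 peaks in 704 genes, and with a fold enrichment of at least 2 it was 1112 in 621. These limits gave median fold enrichments of 2.28 and 2.37. The share at 5 or more steps was 100% with the fold limit and 54.0% with 1 transcript per gene. The share with UGUA was 41.8% at 5 or more steps, 42.9% with the fold limit, 37.4% in the central 100 nt, 70.8% after extension by 50 nt and 37.3% for UGUAA or UGUAU; the share with a pair was 13.6%, 14.6%, 8.81% and 39.6% under the first 4 of these. The UGUA density ratio was 1.13 under both limits, 1.06 in the central 100 nt and 0.965 for UGUAA or UGUAU, which fell below 1. The strand ratio was 1.68 under both limits and 1.55 in the central 100 nt. In place of UGUA, 7 of the 11 other orders gave density ratios below its interval: AGTT gave 0.912, GTTA gave 0.941, TATG and TGAT both gave 0.948, TTGA gave 0.957, GTAT gave 0.961 and TAGT gave 0.963. The remaining alternatives moved no value by more than its interval. Alternatives chosen after seeing the data were 5 or more steps together with 1 transcript per gene (UGUA share 41.6%, pair share 14.0%, density ratio 1.10, strand ratio 1.65) and 12 for the density ratio at 5 or more steps, 1.13. Of these 12, UGUAA or UGUAU moved it most, to 1.05 (0.952 to 1.15). A limit of 9 steps gave 1.05 (0.925 to 1.20) and the highest peak of each gene 1.09 (0.994 to 1.20). In these cases the cause was not tested. A repeat-masked share was not run, since the reference used carries no masking. No paired analysis was possible because each group has 1 library and the input has no peak list here.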
